A study of Homo sapiens with 6 samples.

Results

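The CXC chemokines and inflammatory interleukins, 10 genes for secreted inflammatory signals, were followed in HMCB melanoma cells whose AHCYL1 had been knocked down by siRNA. They were given by name as CXCL1, CXCL2, CXCL3, CXCL8, CCL2, IL1A, IL1B, IL6, LIF and CSF1, and all 10 had a row among the 26902 gene rows of the deposited expression table. HMCB is an established human melanoma cell line, and the labels give its genotype as Nras Q61K. One group of 3 libraries received an siRNA against AHCYL1 (siAHCYL1) and the other group of 3 received a control siRNA (siNC). RNA was taken after 3 days, in a series that asks how AHCYL1, a regulator of IP3 receptor calcium channels, supports the growth of NRAS-mutant melanoma. Both groups therefore share the line, its NRAS mutation and the transfection, and each rests on 1 cell line and, as far as the labels say, 1 siRNA treatment.

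CXC chemokines are small secreted proteins that bind G protein-coupled receptors and draw leukocytes along a gradient. CXCL1, CXCL2, CXCL3 and CXCL8 belong to the branch that attracts neutrophils through CXCR2, with CXCL8 also acting on CXCR1. CCL2 attracts monocytes through CCR2. IL1A and IL1B encode the IL-1 cytokines, which signal through IL1R1 and the co-receptor IL1RAP and switch on NF-kB, and NF-kB in turn drives many of the other genes here. IL6 and LIF encode cytokines that share the signalling receptor chain gp130, encoded by IL6ST, and CSF1 is the growth factor of macrophages. Melanoma cells are known to secrete several of these factors, and an older name of CXCL1 is melanoma growth-stimulating activity.

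The 4 CXC chemokine genes lie in a cluster on chromosome 4 of GRCh38, with CXCL8 at 73740506 to 73743716, CXCL1 at 73869393 to 73871242, CXCL3 at 74036589 to 74038807 and CXCL2 at 74097035 to 74099293, in GENCODE release 29. CXCL8 and CXCL1 are read from the plus strand, CXCL3 and CXCL2 from the minus strand. IL1A (112773915 to 112784590) and IL1B (112829751 to 112836903) are neighbours on chromosome 2, on the minus strand, 45.2 kb apart and with no gene between them. IL6 lies on chromosome 7 (22725884 to 22732002), LIF on chromosome 22 (30240447 to 30246851), CCL2 on chromosome 17 (34255218 to 34257203) and CSF1 on chromosome 1 (109910242 to 109930992).

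RefSeq promoter sequence on GRCh38.p14 was matched for 7 of the 10 genes. The 170 bases before the annotated RefSeq start are printed for the 3 close chemokine paralogs. The same stretch is printed for CXCL8 and IL6, which carry the same kind of site, and for IL1B, which fell. Except for CXCL1, these starts differ from the GENCODE gene boundaries above, so the other printed stretches lie partly or wholly within the stated loci. Distances are counted from the RefSeq starts. Capitals mark matches, on either strand, to 4 motifs that were chosen with known sites of these genes in mind. These were GGANTTTCC (kappaB-type, bound by NF-kB), TGANTCA (AP-1-type), TTGCNNAA (C/EBP-type) and ACGTCA (CRE-type).
CXCL1 (chr4:73869223-73869392, plus strand): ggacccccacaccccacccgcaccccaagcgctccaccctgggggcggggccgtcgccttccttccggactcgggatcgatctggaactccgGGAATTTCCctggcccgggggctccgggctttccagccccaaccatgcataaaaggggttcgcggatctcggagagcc
CXCL2 (chr4:74099196-74099365, minus strand): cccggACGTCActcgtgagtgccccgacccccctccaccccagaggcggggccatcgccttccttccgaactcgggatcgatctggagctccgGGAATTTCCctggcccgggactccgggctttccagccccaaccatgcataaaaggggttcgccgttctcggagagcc
CXCL3 (chr4:74038690-74038859, minus strand): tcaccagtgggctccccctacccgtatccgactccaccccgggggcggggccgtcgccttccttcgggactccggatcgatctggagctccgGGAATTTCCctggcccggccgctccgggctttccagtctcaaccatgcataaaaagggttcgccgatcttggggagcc
CXCL8 (chr4:73740399-73740568, plus strand): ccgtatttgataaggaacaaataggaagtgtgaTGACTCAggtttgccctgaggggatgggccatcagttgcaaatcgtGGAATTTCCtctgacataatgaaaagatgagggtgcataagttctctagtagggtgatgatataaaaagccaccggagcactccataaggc
IL6 (chr7:22727030-22727199, plus strand): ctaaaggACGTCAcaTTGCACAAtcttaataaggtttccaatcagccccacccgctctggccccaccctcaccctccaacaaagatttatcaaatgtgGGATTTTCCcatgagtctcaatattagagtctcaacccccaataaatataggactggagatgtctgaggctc
IL1B (chr2:112836780-112836949, minus strand): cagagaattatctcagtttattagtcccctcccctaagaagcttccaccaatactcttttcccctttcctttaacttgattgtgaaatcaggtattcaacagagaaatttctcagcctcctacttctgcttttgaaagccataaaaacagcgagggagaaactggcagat

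A kappaB-type match stood at -78 from the start of CXCL1 and CXCL3, at -77 of CXCL2, at -91 of CXCL8 and at -72 of IL6. Of 35116 RefSeq promoter windows of 300 bases, 1.64% held this motif. Positions of further matches are given from the start site. CXCL8 also had an AP-1-type match at -137 (7.71% of windows held one). IL6 had a CRE-type match at -163 (7.98% of windows) and a C/EBP-type match at -155 (10.5% of windows). CXCL2 had a CRE-type match at -165 and a C/EBP-type match at -188, outside the printed stretch. IL1B had 1 C/EBP-type match at -215, also outside it, and so has no capitals. IL1A had AP-1-type matches at -105 and -55 from its first annotated start. The same sites stand at -12 and 39 from its second start. Counted from a single start, none of the matches of a gene overlap. The printed CXCL1 and CXCL3 stretches were 82.8% identical in a global alignment, CXCL1 and CXCL2 82.4%, and CXCL2 and CXCL3 80.3%, whereas CXCL1 and CXCL8 were 41.0% identical. A match of letters is a description and not a measured binding site. CXCL2 and CXCL3 had a kappaB-type match but did not pass the test below, and IL1A, called higher, had no such match. Whether a motif bears on the change of a gene was not tested.

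**Figure D1:**
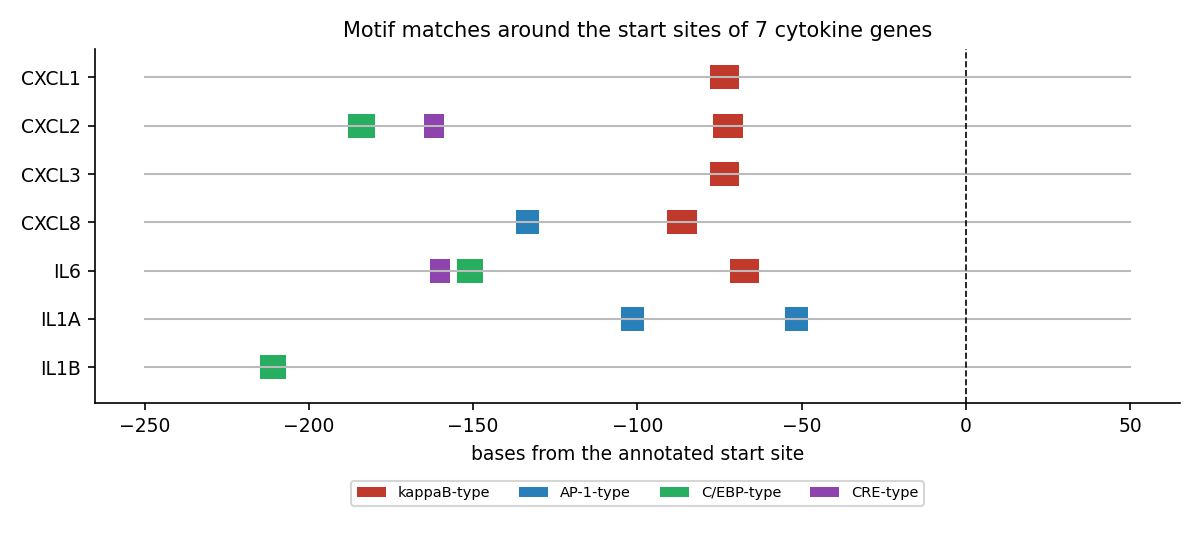
Motif matches from 250 bases before to 50 bases after the annotated start site (dashed line) of 7 genes, with each box 1 match. The kappaB-type matches of CXCL1, CXCL2, CXCL3, CXCL8 and IL6 stand between -91 and -72 from the start.

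The siRNA target was low in each siAHCYL1 library. AHCYL1 had 13.45, 11.13 and 10.97 TPM in siAHCYL1, against 150.02, 134.05 and 131.09 TPM in siNC, 8.56% of the siNC mean (log2 fold change -3.44, SE 0.096, limma adjusted p = 5.64e-08, exact permutation p = 0.1, the smallest that 3 against 3 allows). TPM is scaled to transcript length and to the library's total, so levels can be set between genes, but it keeps no sequencing depth. The depth is therefore unknown, and no interval for counting error is given. Between 13072 and 13189 genes reached 1 TPM in the siAHCYL1 libraries and between 13035 and 13171 in siNC. Of 13266 genes tested, 51.6% changed at an adjusted p under 0.05 (30.4% higher and 21.2% lower in siAHCYL1), and the groups did not overlap in 59.2%, so a changed gene was the common case. Of the changed genes 58.9% were higher, and 48.1% under quantile normalization. The labels call the replicates biological without saying whether they were separate cultures. The limma p-values therefore set a group difference against the spread between these libraries, moderated by that of all tested genes.

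The neural crest and melanoma factor SOX10 was abundant, at 993 to 1027 TPM in siAHCYL1 and 1025 to 1050 TPM in siNC, while the pigment enzyme TYR was listed at 0 in each library and MLANA was at most 0.79 TPM. Of 10 melanocytic markers 8 were tested, and 75% of the 8 changed, beside 51.6% of all tested genes. Of the 8, 4 were higher (S100B, VIM, TYRP1 and PMEL) and 2 lower (DCT and PAX3), and SOX10 and MITF did not pass. Under the alternatives 2 to 4 were higher and 1 to 2 lower, with 1 lower when any siNC library was left out. The pigment enzyme gene DCT had 0.24, 0.15 and 0.62 TPM in siAHCYL1, against 10.79, 11.49 and 11.95 TPM in siNC (log2 fold change -3.23, adjusted p = 1.14e-06). DCT reached the level tested (at least 1 TPM in at least 3 libraries) through its siNC values only, and PMEL through its siAHCYL1 values. S100B had 26.1 to 32.3 TPM in siAHCYL1 and 10.2 to 11.4 TPM in siNC (log2 fold change 1.35), and the log2 fold changes of the others were 0.87 for TYRP1, 0.64 for PMEL, 0.59 for VIM and -0.44 for PAX3. The summed level of the 10 was 2059 to 2220 TPM in siAHCYL1 and 1738 to 1831 TPM in siNC. Of 12 immune and blood cell markers, 7 were listed at 0 in all 6 libraries, among them CD3E, ITGAM, AIF1 and HBB. The summed level of those 12 was 11.7 to 18.1 TPM in siAHCYL1 and 14.9 to 28.8 TPM in siNC. PTPRC, the leukocyte phosphatase CD45, had 8.55 ± 1.90 TPM in siAHCYL1 and 3.45 ± 0.24 TPM in siNC (SD, n = 3 each) and rose, by 1.09 on the log2 scale (adjusted p = 0.000394), and HBA1, which has a near-identical copy, fell. The macrophage genes CD14 and CD68 were at or below 0.89 TPM in each library. Of 8 fibroblast markers, whose sum was 26.1 to 32.4 TPM in siAHCYL1 and 15.4 to 17.9 TPM in siNC, PDGFRA, THY1 and FAP were listed at 0 in each library, LUM was 25.5 to 32.2 TPM in siAHCYL1 and 12.8 to 15.4 TPM in siNC, and COL1A1 was at most 0.68 TPM in siAHCYL1 and 2.5 TPM in siNC. Of 7 endothelial markers (34.3 to 38.7 TPM in siAHCYL1 and 56.9 to 70.9 TPM in siNC) VWF was listed at 0 throughout and PECAM1 was at most 0.06 TPM. Both tested ones were lower, where 21.2% of all tested genes were lower, a result that rests on 2 genes. EGFL7 had 29.9 TPM in siAHCYL1 and 55.1 TPM in siNC (log2 fold change -0.86, adjusted p = 0.000139). KDR had 6.74 TPM in siAHCYL1 and 9.60 TPM in siNC (log2 fold change -0.45, adjusted p = 0.0133). Without siNC replicate 2 or siAHCYL1 replicate 2, 1 of the 2 passed. Of 8 epithelial markers (29.6 to 33.5 TPM in siAHCYL1 and 35.8 to 46.4 TPM in siNC) CDH1, KRT5 and KRT1 were listed at 0 throughout and EPCAM was at most 0.28 TPM. All 3 tested ones passed, where 51.6% of all tested genes changed. CLDN4 had 13.9 TPM in siAHCYL1 and 22.3 TPM in siNC (log2 fold change -0.65), and KRT18 14.3 TPM in siAHCYL1 and 17.5 TPM in siNC (-0.27 on the same scale). KRT8 had 2.41 TPM in siAHCYL1 and 0.87 TPM in siNC (0.90), and was tested through its siAHCYL1 values. Under the alternatives 1 to 2 epithelial markers were lower and 0 to 2 higher, with 1 lower when any single library other than siNC replicate 1 was left out. The part of these markers in the results that follow was not tested.

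After AHCYL1 knockdown the 10 genes split. CXCL8, CXCL1, IL6 and IL1A were higher in siAHCYL1, IL1B, CSF1 and LIF were lower, CXCL2 and CXCL3 did not pass the test, and CCL2 was listed at 0 in all 6 libraries. Of the 9 genes that passed the filter of at least 1 TPM in at least 3 libraries, 4 rose and 3 fell, or 7 of 9 (77.8%) beside 51.6% of all tested genes. The groups did not overlap in the same 7 of 9, beside 59.2% of all tested genes. The median log2 fold change was 0.15 over these 9 genes and 0.06 over all tested genes. CXCL8 passed the filter through its siAHCYL1 values, since only 2 siNC libraries reached 1 TPM. The 8 others passed in each library. In whole-culture RNA, more RNA per cell and more cells expressing a gene cannot be told apart.

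**Figure D2:**
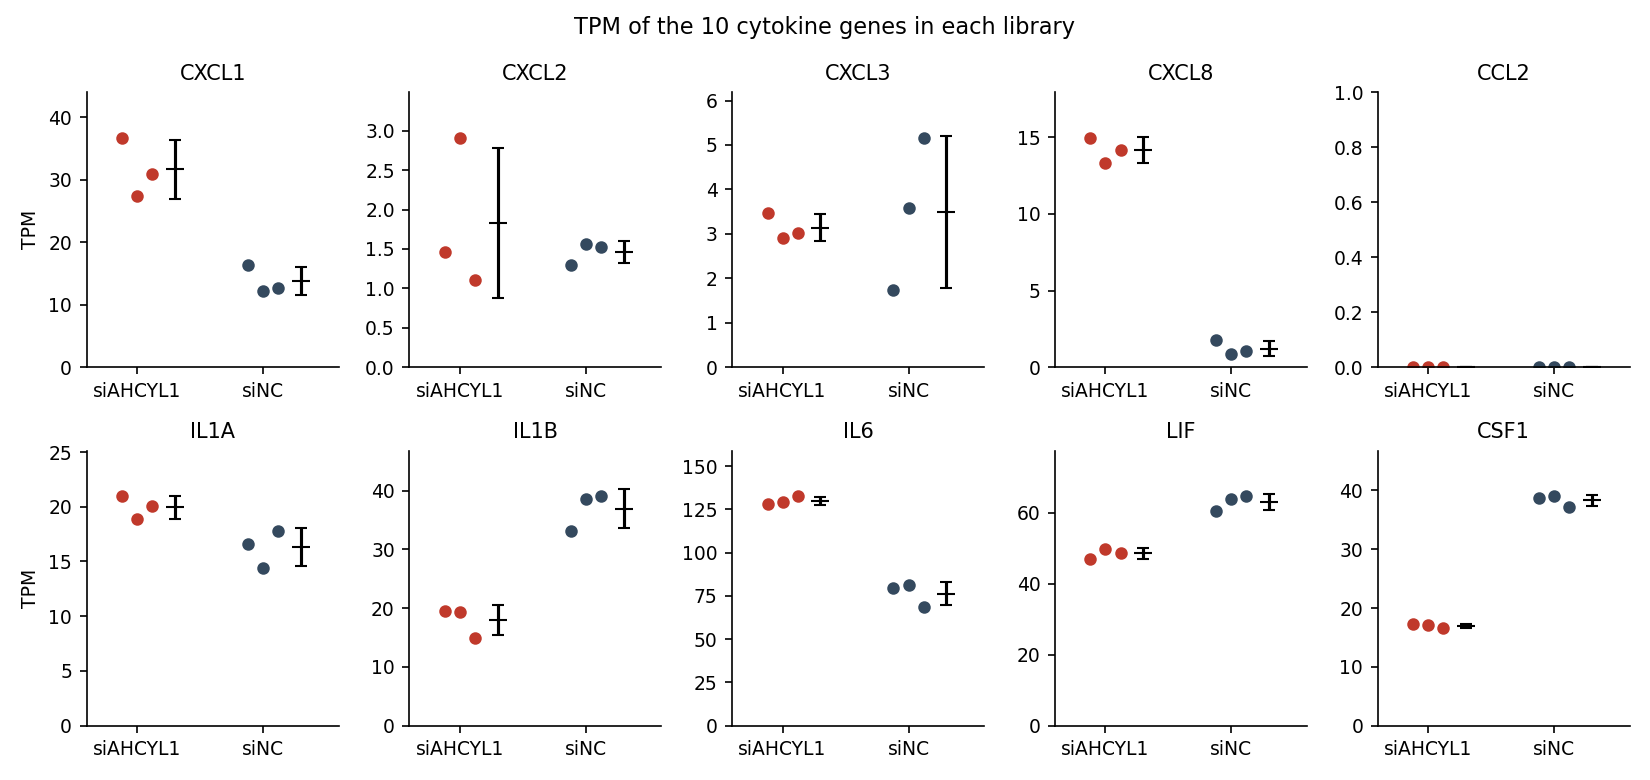
TPM of each of the 10 genes in the 3 siAHCYL1 libraries (red) and the 3 siNC libraries (dark), with the mean and SD beside them and a separate axis from 0 for each gene. CXCL1, CXCL8, IL1A and IL6 lie higher in siAHCYL1 and IL1B, LIF and CSF1 lower with no overlap, the groups overlap for CXCL2 and CXCL3, and CCL2 is at 0.

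CXCL8, the neutrophil chemokine interleukin-8, had the largest fold change of the 9. It stood at 14.96, 13.30 and 14.20 TPM in the siAHCYL1 libraries, against 1.74, 0.83 and 1.06 TPM in the siNC libraries. Each siAHCYL1 library was far above the highest siNC library. The means were 14.2 ± 0.83 TPM in siAHCYL1 and 1.21 ± 0.47 TPM in siNC (SD, n = 3 each), an 11.7-fold ratio of means. On the log2(TPM + 1) scale, where the pseudocount shrinks the change of a gene this low in siNC, the log2 fold change was 2.80 (SE 0.17, adjusted p = 2.47e-06), and with a pseudocount of 0.1 TPM it was 3.50. Only 26 of the 13266 tested genes had a larger absolute log2 fold change, and 18 had a larger rise. CXCL8 was thus above 36.2% of tested genes in siAHCYL1 and above 3.44% in siNC by mean TPM.

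CXCL1, a chemokine for neutrophils that acts through CXCR2, was the second largest rise. It had 36.67, 27.37 and 30.83 TPM in siAHCYL1, against 16.31, 12.25 and 12.61 TPM in siNC. The lowest siAHCYL1 library exceeded the highest siNC library. The means were 31.6 ± 4.70 TPM in siAHCYL1 and 13.7 ± 2.25 TPM in siNC (SD, n = 3 each), a 2.30-fold ratio (log2 fold change 1.15, SE 0.14, adjusted p = 0.000128). The CXCL1 to CXCL8 ratio within a library was 2.45, 2.06 and 2.17 in siAHCYL1, against 9.37, 14.8 and 11.9 in siNC, a ratio chosen after the values were seen and given as a description.

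CXCL2 and CXCL3, chemokines that also act through CXCR2 and lie at the far end of the cluster, stayed near the bottom of the tested range. CXCL2 had 1.46, 2.91 and 1.11 TPM in siAHCYL1, against 1.30, 1.56 and 1.52 TPM in siNC. The siAHCYL1 libraries lay on both sides of the siNC ones, and the log2 fold change of 0.15 (95% interval -0.38 to 0.68, adjusted p = 0.619) did not pass. CXCL3 had 3.48, 2.91 and 3.01 TPM in siAHCYL1, against 1.74, 3.59 and 5.16 TPM in siNC, where the 3 libraries differed among themselves by more than the groups did. Its log2 fold change was -0.05 (95% interval -0.64 to 0.54, adjusted p = 0.894). On the log2(TPM + 1) scale these intervals leave out the log2 fold changes of CXCL1 and CXCL8 but not a smaller one in either direction. The pseudocount shrinks the change of genes this low, so the intervals are not limits on the ratio of TPM. The sign changed without siAHCYL1 replicate 2 for CXCL2 (-0.11) and without siNC replicate 2 (0.0062) or 3 (0.22) for CXCL3. The paralogs are similar enough for reads to be shared between them. Of the 50-base windows of the longest coding transcript, 9.2% in CXCL2, 5.7% in CXCL1 and 5.3% in CXCL3 occur unchanged in another of the 4 genes, and 0% in CXCL8, so the split among the first 3 is less certain than the value of CXCL8. The summed level of the 4 CXC genes was 46.5 to 56.6 TPM in siAHCYL1 and 18.2 to 21.1 TPM in siNC. CCL2, the monocyte chemokine, was listed at 0 in each of the 6 libraries and was not tested.

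The 2 IL-1 genes moved in opposite directions. IL1B, whose product is a secreted cytokine that needs cleavage of its precursor, had 19.50, 19.31 and 14.97 TPM in siAHCYL1, against 33.13, 38.59 and 39.02 TPM in siNC. All 3 siAHCYL1 libraries lay below all 3 siNC libraries, and IL1B fell (17.9 ± 2.56 TPM in siAHCYL1 and 36.9 ± 3.28 TPM in siNC, SD, n = 3 each, log2 fold change -1.01, SE 0.12, adjusted p = 0.000114). IL1A, whose precursor is active without cleavage, had 20.95, 18.85 and 20.05 TPM in siAHCYL1, against 16.63, 14.43 and 17.83 TPM in siNC. The groups did not overlap but lay close together, and IL1A rose by a log2 fold change of 0.28 (SE 0.10, adjusted p = 0.0449). That call was lost in 9 of 14 alternative fits, over which the adjusted p ranged from 0.0209 to 0.171. It was lost without siNC replicate 1 (0.0685) or 2 (0.171), without siAHCYL1 replicate 1 (0.0929), 2 (0.0662) or 3 (0.0986), without replicate 1 of both groups (0.0937), with no filter (0.067), with median-of-ratios scaling (0.0914) and with quantile normalization (0.155). The IL1A to IL1B ratio within a library, chosen after the values were seen, was 1.07, 0.976 and 1.34 in siAHCYL1, against 0.502, 0.374 and 0.457 in siNC.

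The 2 cytokines that signal through gp130 also moved in opposite directions. IL6, an inducer of the acute-phase response, was the most abundant of the 10 genes, with 127.89, 128.96 and 132.49 TPM in siAHCYL1, against 79.46, 81.08 and 68.43 TPM in siNC. Each siAHCYL1 library exceeded each siNC library by a wide margin, and IL6 rose 1.70-fold by the ratio of means (log2 fold change 0.76, SE 0.077, adjusted p = 4.73e-05). The IL6 gene overlaps STEAP1B on the other strand, and these libraries do not keep the strand. STEAP1B had 29.2 ± 2.89 TPM in siAHCYL1 and 25.4 ± 4.21 TPM in siNC (SD, n = 3 each) and did not pass the test (log2 fold change 0.20, adjusted p = 0.208). LIF, leukaemia inhibitory factor, had 46.97, 49.85 and 48.76 TPM in siAHCYL1, against 60.54, 64.01 and 64.63 TPM in siNC. These groups did not overlap, and LIF fell (log2 fold change -0.37, SE 0.068, adjusted p = 0.00157). LIF is overlapped by the antisense gene LIF-AS1, which was not analysed here. The IL6 to LIF ratio within a library, also chosen after the values were seen, was 2.72, 2.59 and 2.72 in siAHCYL1, against 1.31, 1.27 and 1.06 in siNC.

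CSF1, the ligand that keeps macrophages alive, fell to 44.3% of its siNC mean. It had 17.24, 17.13 and 16.57 TPM in siAHCYL1, against 38.75, 38.99 and 37.17 TPM in siNC. Within a group the libraries differed by less than 2 TPM, and the groups stood far apart (log2 fold change -1.13, SE 0.077, adjusted p = 5.07e-06). CSF1 is the protein-coding gene next to AHCYL1 itself, on the same strand, with its end 53.7 kb before the start of AHCYL1 (109984686 to 110023741) and no gene annotated between them. Whether the position of CSF1 bears on its change was not tested.

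**Figure D3:**
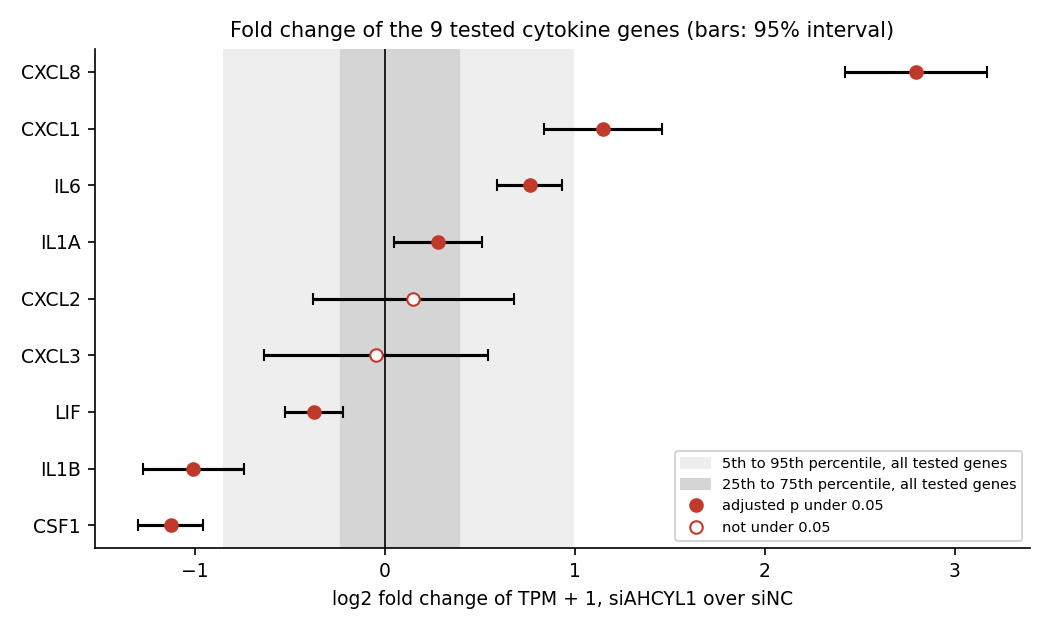
Log2 fold change of TPM + 1 (siAHCYL1 over siNC) of the 9 tested genes with 95% intervals, filled where the adjusted p is under 0.05, over grey bands with the 5th to 95th and 25th to 75th percentiles of all tested genes (-0.84 to 0.99 and -0.23 to 0.39). CXCL8 (2.80) and CXCL1 (1.15) lie above the wider band, CSF1 (-1.13) and IL1B (-1.01) below it, and the other 5 point estimates lie within it.

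The order of levels changed below the top. In siAHCYL1 the mean TPM ran IL6, LIF, CXCL1, IL1A, IL1B, CSF1, CXCL8, CXCL3, CXCL2 from high to low. In siNC it ran IL6, LIF, CSF1, IL1B, IL1A, CXCL1, CXCL3, CXCL2, CXCL8. Neighbours whose libraries overlapped, and which were therefore not separated by their spread, were IL1A with IL1B, IL1B with CSF1, and CXCL3 with CXCL2 in siAHCYL1. In siNC they were CSF1 with IL1B, IL1A with CXCL1, and CXCL2 with CXCL8. IL6 held 44.2%, 46.0% and 47.0% of the summed TPM of the 10 genes in siAHCYL1, against 31.8%, 31.8% and 27.7% in siNC. CSF1 held 5.96%, 6.11% and 5.88% in siAHCYL1, against 15.5%, 15.3% and 15.0% in siNC. The sum itself was 280.6 to 289.1 TPM in siAHCYL1 and 247.4 to 255.3 TPM in siNC. By mean TPM, IL6 was above 89.2% of tested genes in siAHCYL1 and 81.7% in siNC, whereas CXCL2 was above 6.91% in siAHCYL1 and 4.95% in siNC.

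Across the 6 libraries, the genes whose profile was nearest to that of CXCL8 were LINC01151, WSCD2, PP7080, ADCY2 (an adenylate cyclase) and TMEM132D. The measure was the Euclidean distance between log2(TPM + 1) values less their siNC mean, and it was 0.44 for LINC01151 and 0.72 for TMEM132D. Their log2 fold changes were 2.85, 2.77, 2.99, 2.56 and 2.45 in that order. Fold changes close to that of CXCL8 follow from this choice, since the measure picks genes by the size of their change. WSCD2 had 92.4 TPM in siAHCYL1, against 12.7 TPM in siNC, a higher level than that of CXCL8 in both groups.

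The receptors through which the 10 factors act were unevenly present. CXCR1, CXCR2, ACKR1, CCR2 and CSF1R were listed at 0 in each library. The atypical receptor ACKR2 had 0.32, 0.15 and 0.22 TPM in siAHCYL1 and 0, 0 and 0.08 TPM in siNC, below the level tested. IL1R2, a decoy receptor for IL-1, was listed at 0 in each siAHCYL1 library and had 0.37, 0.56 and 0.64 TPM in siNC, below the level tested. IL1R1 had 0.997 ± 0.097 TPM in siAHCYL1 and 1.02 ± 0.29 TPM in siNC, and its co-receptor IL1RAP 13.3 ± 2.00 TPM in siAHCYL1 and 12.1 ± 0.99 TPM in siNC (SD, n = 3 each). Neither passed the test, nor did IL6R, the IL-6 binding chain (4.22 ± 0.30 TPM in siAHCYL1 and 4.78 ± 0.72 TPM in siNC).

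Both chains of the LIF receptor fell, and no receptor gene rose among the 5 tested (2 of 5 changed, or 40%, beside 51.6% of all tested genes). LIFR had 48.50, 38.60 and 39.84 TPM in siAHCYL1, against 57.12, 60.80 and 55.27 TPM in siNC (log2 fold change -0.45, SE 0.096, adjusted p = 0.00389). IL6ST had 62.49, 50 and 48.22 TPM in siAHCYL1, against 72.11, 66.23 and 65.73 TPM in siNC (log2 fold change -0.35, SE 0.10, adjusted p = 0.0176). The groups did not overlap for either gene, with replicate 1 the highest siAHCYL1 library of both. The IL6ST call was lost without siNC replicate 1 (adjusted p = 0.0511), without siAHCYL1 replicate 2 (0.0646) and without siAHCYL1 replicate 3 (0.0638).

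**Figure D4:**
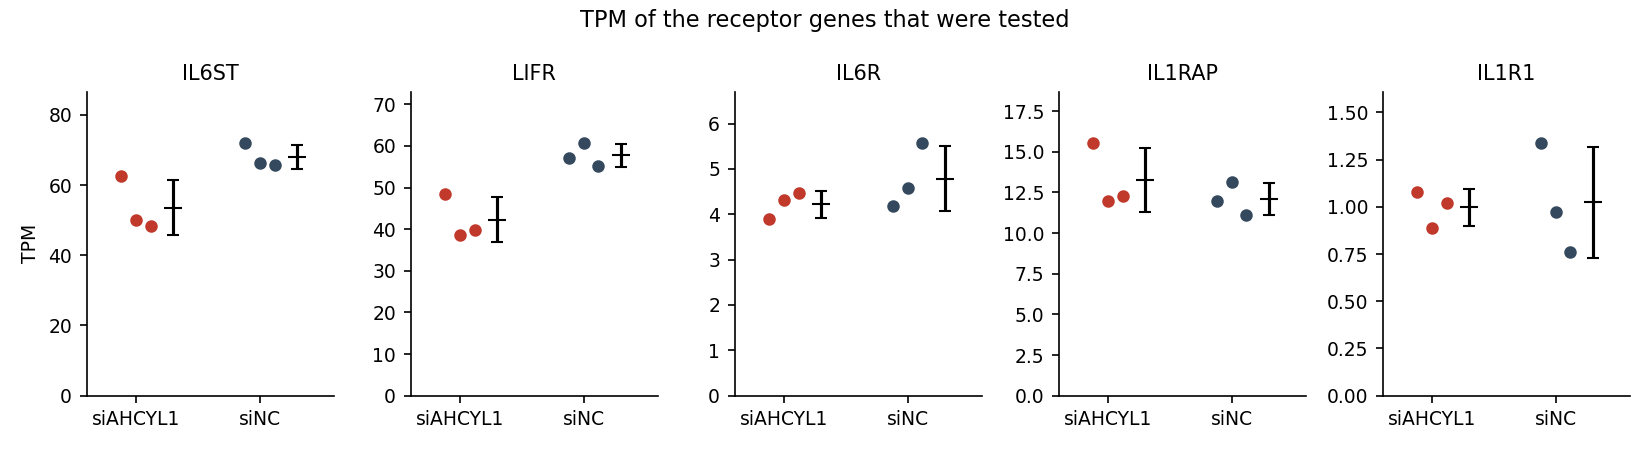
TPM of the 5 tested receptor genes in the 3 siAHCYL1 libraries (red) and the 3 siNC libraries (dark), with the mean and SD beside them and a separate axis from 0 for each gene. IL6ST and LIFR are lower in siAHCYL1 without overlap, and the groups overlap for IL6R, IL1RAP and IL1R1.

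Downstream of gp130, transcription factors of the STAT family moved unequally. Of 14 tested JAK-STAT genes, 4 rose and 3 fell (50% changed, near the 51.6% of all tested genes, median log2 fold change 0.11). STAT3, the main transducer of IL-6 and LIF, rose to 101.9 ± 3.58 TPM in siAHCYL1, against 65.1 ± 2.93 TPM in siNC (SD, n = 3 each, log2 fold change 0.64, adjusted p = 5.74e-05). STAT5B rose (313 TPM in siAHCYL1 against 164 TPM in siNC, log2 fold change 0.93), as did its near-identical neighbour STAT5A (log2 fold change 0.69), between which reads may be shared. CISH, a STAT5-induced inhibitor of cytokine receptors, fell (1.44 TPM in siAHCYL1 against 4.03 TPM in siNC, log2 fold change -1.04).

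Genes that process and release IL-1 had 4 risen and 0 fallen of 10 tested (40% changed, median log2 fold change 0.20). Of all tested genes, 51.6% changed and 30.4% were higher. GSDME, listed under its older symbol DFNA5, and GSDMD encode gasdermins, pore proteins through which IL-1 can leave a cell. GSDME rose to 65.6 TPM in siAHCYL1, against 41.9 TPM in siNC (log2 fold change 0.63, adjusted p = 0.000116), and GSDMD to 132 TPM in siAHCYL1, against 88.6 TPM in siNC (log2 fold change 0.57). The calpain genes CAPN2 (log2 fold change 0.39) and CAPN1 (log2 fold change 0.33), whose proteases cut the IL1A precursor, rose as well. CASP1, the caspase that cuts the IL1B precursor, was at most 1.41 TPM in siAHCYL1 and 1.97 TPM in siNC, and its adaptor PYCARD and the receptor antagonist IL1RN were listed at 0 in each library. The last 3 genes were chosen after their values were seen.

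In the pathway from IL-1 and Toll receptors to NF-kB, 6 of 14 tested genes rose and 3 fell (64.3% changed, beside 51.6% of all tested genes, median log2 fold change -0.09). The kinase IRAK1 (200 TPM in siAHCYL1 against 149 TPM in siNC, log2 fold change 0.42, adjusted p = 0.000394) and the adaptors TOLLIP (log2 fold change 0.42) and TIRAP (log2 fold change 0.74) rose, and TAB2, an adaptor of the kinase TAK1, fell (32.2 TPM in siAHCYL1 against 53.3 TPM in siNC, log2 fold change -0.72). Of 21 NF-kB subunits, kinases and inhibitors, 7 rose and 5 fell (57.1% changed, beside 51.6% of all tested genes, median log2 fold change 0.06). NFKBIZ, a nuclear cofactor of NF-kB that IL6 induction depends on, rose to 9.39 ± 0.85 TPM in siAHCYL1, against 4.52 ± 0.74 TPM in siNC (SD, n = 3 each, log2 fold change 0.92, adjusted p = 0.000485). IKBKG, the regulatory subunit of the IkB kinase, which has a near-identical partial copy (log2 fold change 0.53), and TNIP1, a partner of the inhibitor TNFAIP3 (log2 fold change 0.40), rose. MAP3K14, the kinase of the non-canonical pathway, fell (3.29 TPM in siAHCYL1 against 7.09 TPM in siNC, log2 fold change -0.92).

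CEBPD, a C/EBP transcription factor known to act at the IL6 promoter, had the largest change of any tested gene in the pathway lists. It had 72.99, 101.89 and 93.60 TPM in siAHCYL1, against 9.74, 6.62 and 13.54 TPM in siNC. The groups were widely separated, although the libraries of each group differed among themselves (log2 fold change 3.08, SE 0.21, adjusted p = 5.56e-06). Of 16 tested C/EBP, CREB, ATF and NFAT genes, 6 rose and 5 fell (68.8% changed, beside 51.6% of all tested genes, median log2 fold change 0.13). CREB3 (log2 fold change 0.81) and ATF2 (log2 fold change 0.57) rose, and ATF1 (log2 fold change -0.71) and ATF4 (427 TPM in siAHCYL1 against 544 TPM in siNC, log2 fold change -0.35) fell.

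Among genes that act on cytokine mRNA after transcription, 4 of 16 tested binders of AU-rich or stem-loop elements rose and 4 fell (50% changed, beside 51.6% of all tested genes, median log2 fold change -0.17). ZFP36, tristetraprolin, which binds AU-rich elements and speeds decay of cytokine mRNAs, rose to 45.1 ± 7.19 TPM in siAHCYL1, against 22.9 ± 2.29 TPM in siNC (SD, n = 3 each, log2 fold change 0.94, adjusted p = 0.000266). Its relative ZFP36L1 (log2 fold change 0.57) and TIA1, a translational silencer (log2 fold change 0.61), rose, and ZC3H12C, of the regnase family of RNases, fell (log2 fold change -0.66). Of 14 tested MAP kinase genes upstream of cytokine mRNA, 3 rose and 5 fell (57.1% changed, beside 51.6% of all tested genes, median log2 fold change -0.03). MAP2K6, a kinase that activates p38, had 5.87, 4.74 and 5.22 TPM in siAHCYL1, against 23.24, 26.51 and 23.86 TPM in siNC, and fell (log2 fold change -2.03, adjusted p = 1.50e-06). MAP2K3, of the same list and chosen after its values were seen, had 57.2 TPM in siAHCYL1 and 52.9 TPM in siNC. It did not pass the test (log2 fold change 0.11, adjusted p = 0.189). The p38 gene MAPK11 rose (43.5 TPM in siAHCYL1 against 22.7 TPM in siNC, log2 fold change 0.91), and the phosphatases that switch off p38 and JNK, DUSP10 (3.23 TPM in siAHCYL1 against 10.03 TPM in siNC, log2 fold change -1.39) and DUSP1 (log2 fold change -0.51), fell.

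**Figure D5:**
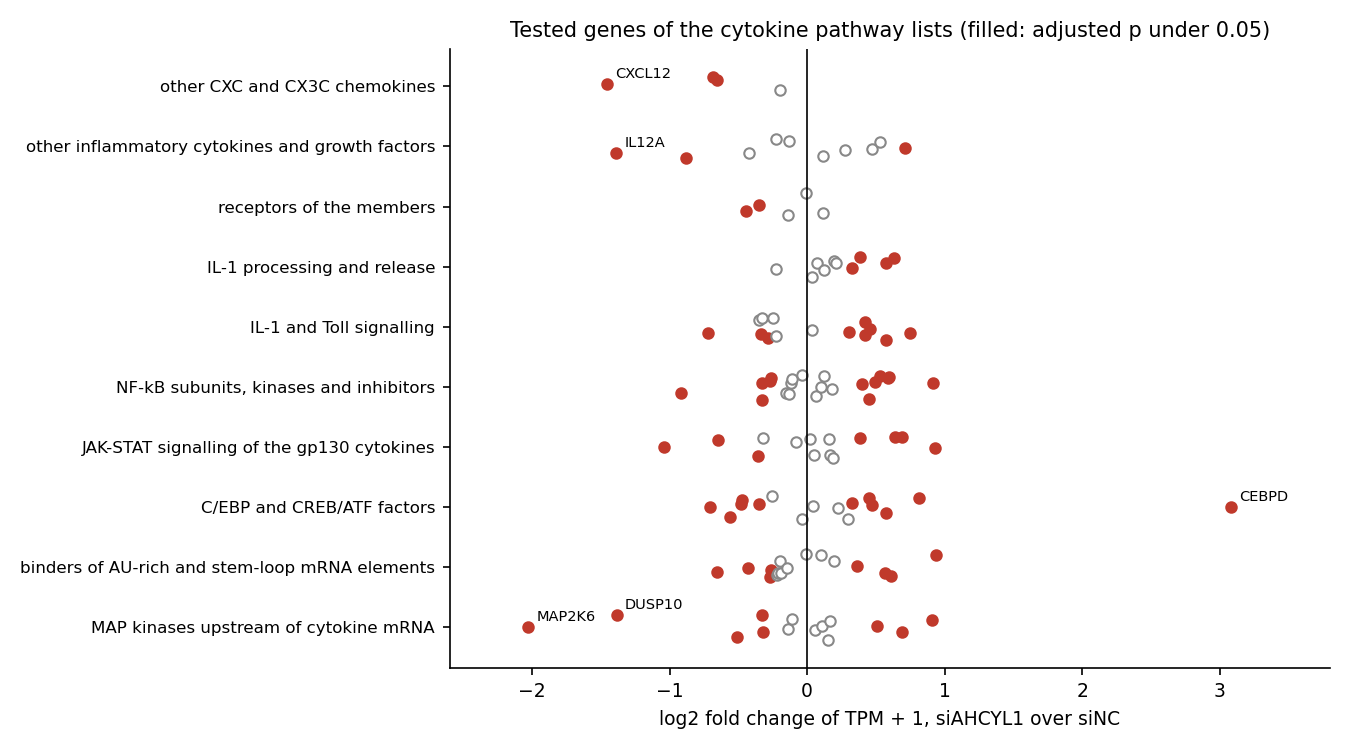
Log2 fold change of TPM + 1 (siAHCYL1 over siNC) of each tested gene in 10 pathway lists, filled where the adjusted p is under 0.05, with symbols where the change exceeds 1.2 in size and vertical scatter within a list for display. CEBPD lies at 3.08 and MAP2K6 at -2.03, and most lists hold filled points on both sides of 0.

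Other secreted factors outside the 10 genes were mostly low or listed at 0. Of 14 further CXC and CX3C chemokine genes 7 were listed at 0 in all 6 libraries, and of the 4 tested 3 fell and 0 rose (75% changed, where 21.2% of all tested genes were lower), a share that rests on 4 genes. CXCL12, the ligand of CXCR4, had 14.90, 14.76 and 13.55 TPM in siAHCYL1, against 42.78, 42.74 and 38.27 TPM in siNC, and fell (log2 fold change -1.46, SE 0.087, adjusted p = 2.57e-06). CX3CL1, fractalkine, fell to 23.4 TPM in siAHCYL1, against 38.3 TPM in siNC (log2 fold change -0.69, adjusted p = 9.13e-05). CXCL5, which lies between CXCL1 and CXCL3 in the cluster, was tested through its siNC values and fell at a low level (0.43 TPM in siAHCYL1 against 1.25 TPM in siNC, log2 fold change -0.66, adjusted p = 0.0187), a call lost without siAHCYL1 replicate 1 (adjusted p = 0.0589). PF4, PF4V1, PPBP and CXCL6, the other chemokine genes between CXCL8 and CXCL3, were listed at 0 in each library.

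Of 16 further CC chemokine genes 11 were listed at 0 in all 6 libraries and none reached the filter. Of 10 tested cytokines and growth factors of other families 1 rose and 2 fell (30% changed, beside 51.6% of all tested genes, median log2 fold change -0.01). IL12A, a subunit of interleukin-12, fell (5.15 TPM in siAHCYL1 against 15.0 TPM in siNC, log2 fold change -1.39, adjusted p = 4.02e-05), as did TNFSF10, the death ligand TRAIL (4.72 TPM in siAHCYL1 against 9.51 TPM in siNC, log2 fold change -0.88). KITLG, the ligand of the receptor KIT that melanocytes depend on, rose (4.75 TPM in siAHCYL1 against 2.53 TPM in siNC, log2 fold change 0.71, adjusted p = 0.00428). CSF2, CSF3 and OSM, chosen after their values were seen, were listed at 0 in each library, and TNF was not analysed here.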

How the data were processed

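RNA-seq of 3 siAHCYL1 and 3 siNC libraries of HMCB cells was used. The authors deposited TPM values, 1 column per library. STAR, RSEM and GRCh38 are named in the submitters' processing notes, with no version, and the annotation is not given in the sources used here. Per the labels' protocols the libraries were non-directional. Columns named nc were taken as siNC and those named si as siAHCYL1, the only other group.

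Log2(TPM + 1) was fitted with limma 3.58.1 in R 4.3.3 (intensity trend, two-sided, Benjamini-Hochberg adjustment over the 13266 genes that reached 1 TPM in 3 or more libraries). A gene changed at an adjusted p under 0.05. The procedure was tested on simulated data with independent noise and a far smaller share of changed genes, so that run is no check of the calls made here. Errors of means are SDs and of fold changes SEs. Sequences came from RefSeq (GRCh38.p14) and loci from GENCODE release 29. The 10 genes, the pathway lists and the tests were chosen with earlier results of these data known. The genes named from each list were up to 4 changed members by adjusted p, the one most against the list's majority, and each receptor. Alternatives were another pseudocount, other filters, 2 scalings, another moderation, the replicate block and libraries left out. A few genes are not reported here.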

Additional observations from a re-analysis of the deposited data

How the results depend on the processing

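Under 14 alternatives, 5566 to 7919 genes changed (6844 as reported), and AHCYL1 kept its call (log2 fold change between -3.54 and -3.38). Among the 9 tested genes, 6 or 7 changed. CXCL8, CXCL1, IL6, IL1B, CSF1 and LIF kept their calls in all 14, and IL1A lost its call in 9. CXCL2 and CXCL3 were not tested under the filter at 5 TPM. Of 38 named pathway genes that changed, 36 kept the call in each alternative that tested them, the exceptions being CXCL5 and IL6ST. Leaving out replicate 1 of both groups left 6 of the 9 genes changed, 3 higher and 3 lower. Counts within lists also moved: 1 to 3 receptors were lower and 0 to 1 higher, and 0 to 3 cytokines of other families were higher. Lower were 3 to 7 binders of AU-rich or stem-loop elements, 2 to 5 IL-1 and Toll genes and 3 to 6 C/EBP and CREB/ATF genes. Among NF-kB genes 5 to 8 were higher.

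Signs turned, with no call in either fit, for CXCL2 without siAHCYL1 replicate 2 (-0.11, in a range of -0.11 to 0.34 over single libraries left out) and for CXCL3 without siNC replicate 2 (0.0062) or 3 (0.22, in a range of -0.37 to 0.22). The sign of IL1R1 turned without siAHCYL1 replicate 2 (0.029, in a range of -0.11 to 0.029 over the 3 such fits that tested it). The cause was not tested. With 1 library left out, 5566 to 6725 genes changed. A replicate block raised the count of changed genes to 7919. The deviations of libraries with the same number correlated at 0.233, 0.00092 and 0.154, and replicate 2 of siAHCYL1 was closer to replicate 3 of siNC (0.153), so the shared numbers were not taken as pairs. What depth limits could not be set, since it is unknown.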
